A study of Mus musculus with 16 samples.

Results

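The MHC class II genes are 10 members picked by symbol: H2-Aa, H2-Ab1 and H2-Eb1, H2-DMa, H2-DMb1 and H2-DMb2, H2-Oa and H2-Ob, Cd74 and Ciita. All 10 were found once each among the 43432 gene rows of the RNA-seq table, and all 10 were among the 13091 genes tested, which had a mean of at least 10 normalized counts. RNA was measured in splenic B cells labelled KO, 4 libraries, and Flox, 4 libraries, all of the strain labelled C57B6L/J. The series title names miR-221/222-3p as the microRNAs under study, and the agent that removed the floxed locus is not given in the sources used here. All cultures had been stimulated for 4 days with an antibody to CD40 at 500 ng/ml, IL-4 at 25 ng/ml and IL-21 at 10 ng/ml. A further 4 KO and 4 Flox libraries hold Ago2-bound RNA (HITS-CLIP, which sequences RNA crosslinked to the microRNA carrier Ago2), and their deposited output pools the replicates.

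MHC class II molecules are pairs of an alpha and a beta chain that show peptides from endosomes to CD4+ T cells. B cells make them throughout their mature life, and this display lets them obtain T cell help. The chains are built with the invariant chain Cd74, which blocks the groove until endosomal proteases cut it to a short remnant. H2-DM, a pair of H2-DMa with an H2-DMb chain, then swaps this remnant for peptide, and H2-DO, a pair of H2-Oa with H2-Ob, restrains H2-DM. Transcription of the whole family depends on the coactivator CIITA, which docks on factors bound to the X and Y boxes of class II promoters. Mice of the C57BL/6 background make no E alpha chain, so their E beta chain, the product of H2-Eb1, has no partner of its own.

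The microRNAs named in the title are shown with their seed, bases 2 to 8, in capitals, because the seed is the part that pairs with target RNAs (RefSeq, build GRCm38.p6, chromosome X). Both share the seed GCUACAU.
mmu-miR-221-3p: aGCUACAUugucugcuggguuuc
mmu-miR-222-3p: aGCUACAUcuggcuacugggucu

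Promoter stretches of 61 bases are shown for the members whose RefSeq window held a Y box core (GATTGG) near the start of the gene in the table (RefSeq, build GRCm38.p6, chromosome 17, 5′ to 3′ on the gene's strand). They show the feature through which CIITA is known to act on these genes together. Capitals mark GATTGG and, where present 20 to 30 letters before it, GNAAC, part of the X box, and in H2-Aa also TGACGTCA, a cyclic AMP response element. The stretches lie on the plus strand at chr17:34092290-34092350 (H2-Oa), chr17:34153084-34153144 (H2-DMb1), chr17:34238802-34238862 (H2-Ob) and chr17:34305762-34305822 (H2-Eb1), and on the minus strand at chr17:34287857-34287917 (H2-Aa).
H2-Oa: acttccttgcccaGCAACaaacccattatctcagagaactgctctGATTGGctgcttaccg
H2-DMb1: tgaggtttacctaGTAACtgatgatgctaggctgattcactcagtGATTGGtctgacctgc
H2-Ob: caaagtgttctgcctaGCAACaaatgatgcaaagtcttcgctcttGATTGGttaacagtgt
H2-Aa: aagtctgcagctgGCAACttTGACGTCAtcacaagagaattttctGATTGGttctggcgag
H2-Eb1: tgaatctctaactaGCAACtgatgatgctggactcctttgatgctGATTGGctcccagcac

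In these 5 promoters GATTGG began 44 bases (H2-Oa), 62 bases (H2-DMb1), 58 bases (H2-Ob), 49 bases (H2-Aa) and 60 bases (H2-Eb1) before the RefSeq start. Between GNAAC and GATTGG lay 27 letters in H2-Oa, H2-DMb1 and H2-Aa, 26 in H2-Eb1 and 24 in H2-Ob. Windows of 300 bases were at hand for 7 members (8 windows), while H2-Ab1, Cd74 and Ciita are named only. The window of H2-DMb2, whose RefSeq start lies 1942 nt inside the span of the table, held GATTGG without GNAAC at that distance. Of the windows of H2-DMa, which begin transcription 12350 and 9664 nt before the start in the table, 1 held GATTGG, also without GNAAC. On either strand GATTGG was found in 16.1% of 32851 RefSeq promoter windows, GNAAC 20 to 30 letters before GATTGG in 0.651%, and TGACGTCA in 1.79%. The letters and the distance were set after the members' sequences had been read, so the count of 5 members is a description.

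The KO libraries held 22947689 to 39236132 gene reads and the Flox libraries 25421025 to 39616596. KO 1 and KO 3 stood apart, at -38.0 and -35.6 on the first principal component (33.5% of variance), where KO 2 was at -15.3, KO 4 at 7.47 and Flox at 14.5 to 26.5. Results are therefore also given without both. Every KO library lay below every Flox library on this component, so KO 1 and KO 3 were also the KO libraries least like Flox on it. Leaving them out can thus shrink a difference between KO and Flox by the choice itself, and only KO 2 and KO 4 remain. For Mir221, KO libraries had 0 reads throughout, and Flox 3 and Flox 4 had 3 and 1 where Flox 1 and Flox 2 had 0, too few to check the labels. Summed over 7 B cell markers, normalized counts were 93570 to 117573 in KO and 107703 to 113945 in Flox. The 8 dendritic cell markers summed to 4134 to 4669 in KO and 4966 to 5904 in Flox, and these ranges did not overlap. Nearly all of that sum came from Flt3, Zbtb46 and Batf3, with log2 fold changes of -0.32, -0.15 and -0.83. Of the other markers, Xcr1, Clec9a, Cd209a and Siglech had at most 3, 0, 1 and 11 reads in a KO library. In a Flox library these had at most 5, 1, 1 and 3 reads. Itgax was at 5.2 to 17.3 normalized counts in KO and 8.7 to 18 in Flox. The 9 macrophage and monocyte markers summed to 391 to 593 in KO and 362 to 500 in Flox, mostly from Cd68 at 275 to 431 in KO and 249 to 390 in Flox and Adgre1 at 27.4 to 84.4 in KO and 40.1 to 72.9 in Flox. Of that list Csf1r, the receptor for the macrophage growth factor, had at most 8 reads in a KO library and 12 in a Flox library. Ly6c2 was at 16.9 to 57.8 normalized counts in KO and 23.2 to 36.6 in Flox. Lyz2 was at 2.3 to 30 in KO and 3.5 to 17.3 in Flox. The 8 T cell markers summed to 1592 to 1944 in KO and 1416 to 1625 in Flox, nearly all of it Lck, and Cd3e had at most 12 reads in a KO library and 10 in a Flox library. The 6 plasma cell markers summed to 53257 to 72287 in KO and 59800 to 85637 in Flox. The part of these markers in the results that follow was not tested.

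The first question was how much of the RNA the class II genes held and whether that differed between KO and Flox. The 10 genes took 2.17, 2.01, 1.79 and 2.27% of all reads in KO 1 to 4, against 1.87, 1.85, 2.19 and 2.38% in Flox 1 to 4. The ranges overlapped almost fully, with 2.06 ± 0.208% in KO and 2.07 ± 0.259% in Flox (SD, n = 4 each), and KO 3 was the lowest library of all. Cd74 alone gave 1.11, 0.982, 0.903 and 1.06% of reads in KO 1 to 4, against 0.849, 0.846, 0.985 and 1.11% in Flox 1 to 4. In bulk RNA, fewer cells of a kind and less RNA per cell cannot be told apart.

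Of the 10 members 0 passed an adjusted p of 0.05 between KO and Flox, where 9 of 13091 genes did (0.0687%; limma-trend on log2 of normalized counts plus 1, Benjamini-Hochberg adjustment). At an unadjusted limma p under 0.05 there was 1 member, Ciita, higher in KO, against 7.74% of all genes tested that were higher and 7.39% that were lower at that limit. DESeq2 and edgeR on the recovered reads also called 0 members, each with 1 at an unadjusted p under 0.05. Log2 fold changes were positive in 4 members and negative in 6, with a median of -0.09, beside a median of -0.01 over all genes tested. The 95% intervals of 9 members included 0. A correction for span and GC content moved the log2 fold changes upward in 9 members, to -0.13 (H2-Aa), 0.22 (H2-Ab1), -0.16 (H2-Eb1), -0.03 (H2-DMa), -0.05 (H2-DMb1), -0.0033 (H2-DMb2), 0.16 (H2-Oa), -0.06 (H2-Ob) and 0.20 (Cd74), and that of Ciita to 0.19.

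**Figure D1:**
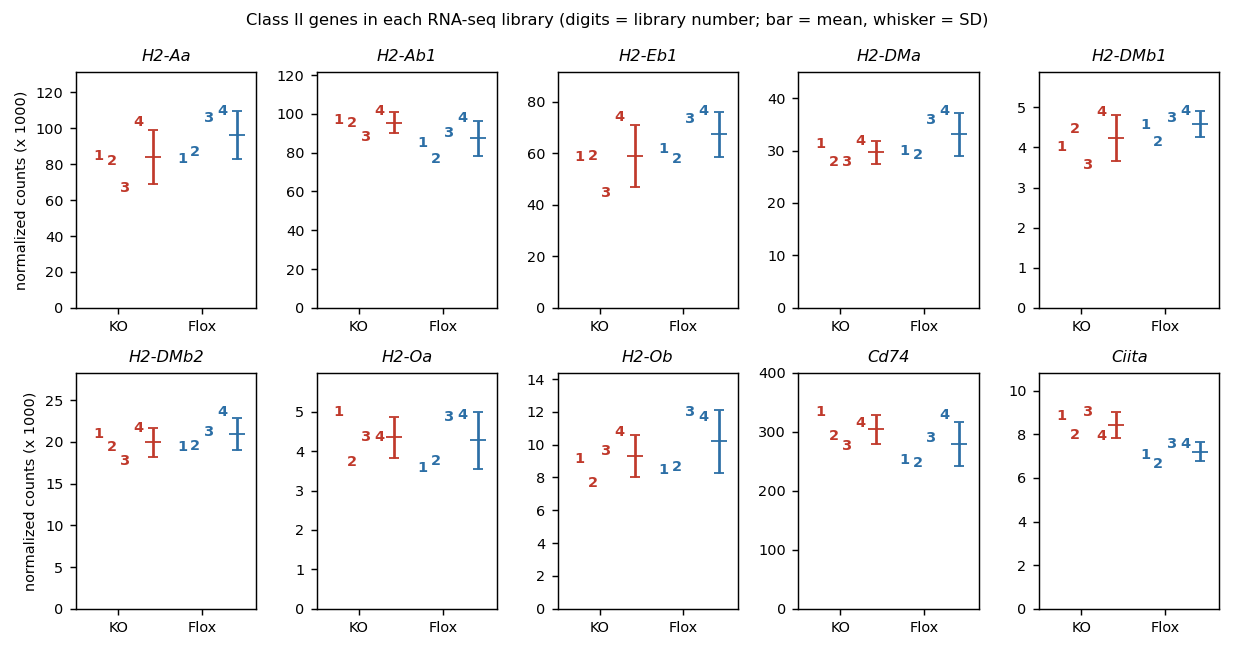
Normalized counts (linear axis from 0, 1 panel per gene) in each KO library (red) and Flox library (blue), with digits giving the library number and the bar and whisker the mean and SD of 4 libraries. In Ciita the 4 KO libraries, at 7922 to 9018, sit above the 4 Flox libraries, at 6659 to 7577, and in the other 9 genes the groups overlap.

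Ciita, the coactivator on which the family depends (chromosome 16, 10488178 to 10527564, plus strand), was the member with the smallest p. It had 8841, 7950, 9018 and 7922 normalized counts in KO 1 to 4, against 7042, 6659, 7577 and 7559 in Flox 1 to 4. Every KO library lay above every Flox library, as was the case with KO higher for 4.18% of all genes tested. The means were 8433 ± 578 in KO and 7209 ± 443 in Flox (SD, n = 4 each). The log2 fold change was 0.23 (SE 0.08, limma adjusted p = 0.270), a fold of 1.17 with a 95% interval of 1.03 to 1.32. The authors' deposited table gives an adjusted p of 0.178 for it. The log2 fold change ran from 0.14 without KO 1 and KO 3 to 0.25 over the other settings. The unadjusted limma p was above 0.05 without KO 1 and KO 3 (0.117) and without Flox 2 (0.0676). Dexi, on the opposite strand, shares 25034 nt with its span, and use of strand in the counting is not given in the sources used here; Dexi itself averaged 1407 in KO and 1420 in Flox.

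The classical chains did not share a direction. H2-Ab1, the beta chain of the A molecule (chromosome 17, 34263209 to 34269418, plus strand), had 96806, 95393, 88213 and 101364 normalized counts in KO 1 to 4, against 84968, 76624, 90263 and 97936 in Flox 1 to 4. KO 4 was the highest library and Flox 2 the lowest, with the groups overlapping between 88213 and 97936. Its log2 fold change was 0.13 (SE 0.11, limma adjusted p = 0.557), with a 95% interval of the fold of 0.929 to 1.29.

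H2-Aa, the alpha chain that pairs with it (chromosome 17, 34282744 to 34287827, minus strand), had 84398, 81893, 66673 and 103386 normalized counts in KO 1 to 4, against 82893, 86799, 105748 and 109510 in Flox 1 to 4. KO 3 stood lowest, and KO 4 lay between Flox 2 and Flox 3. The log2 fold change was -0.20 (SE 0.15, limma adjusted p = 0.511), with a 95% interval of the fold of 0.694 to 1.09. Without KO 1 and KO 3 it was -0.05.

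H2-Eb1, the E beta chain (chromosome 17, 34305877 to 34316199, plus strand), followed H2-Aa closely. It had 58446, 58875, 44497 and 73922 normalized counts in KO 1 to 4, against 61591, 57876, 73281 and 76261 in Flox 1 to 4, so again KO 3 was lowest and KO 4 was close to Flox 3. The log2 fold change was -0.20 (SE 0.15, limma adjusted p = 0.522), with a 95% interval of the fold of 0.687 to 1.10, and -0.02 without KO 1 and KO 3. The related beta chain gene H2-Eb2 averaged 3139 ± 573 in KO and 2870 ± 481 in Flox (log2 fold change 0.13, SE 0.15). H2-Ea-ps, the row of the E alpha gene, was at 0 reads in KO 1, KO 2 and KO 3 and 5 in KO 4, and at 5, 1, 2 and 4 in Flox 1 to 4, and H2-Pa was at 0 reads throughout, a count that allows up to 3 per library.

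**Figure D2:**
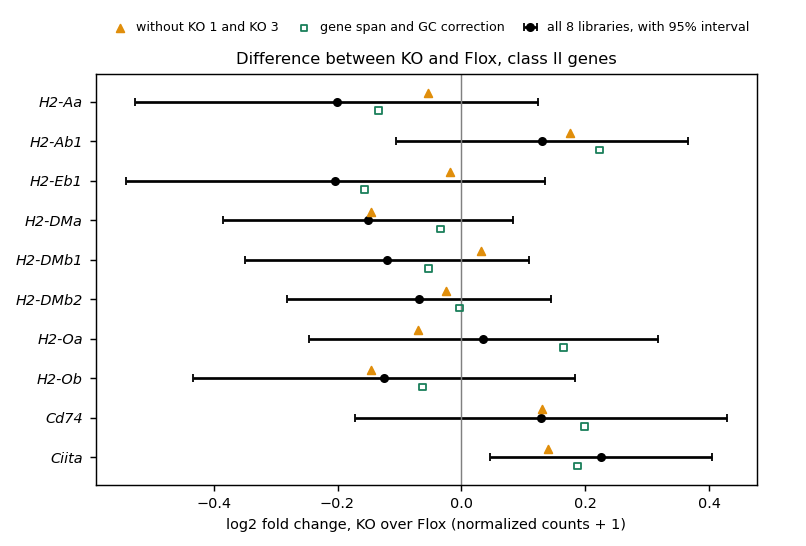
Log2 fold change of KO over Flox for the 10 genes (black point, whisker = 95% interval of the limma-trend fit on 8 libraries), without KO 1 and KO 3 (triangle) and after correcting for span and GC (open square). The interval of Ciita, 0.05 to 0.41, lies above 0, and those of the other 9 genes include 0.

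Within a library, the size factor cancels from a ratio of 2 genes. The ratio of H2-Ab1 to H2-Aa in normalized counts was 1.15, 1.16, 1.32 and 0.980 in KO 1 to 4, against 1.02, 0.883, 0.854 and 0.894 in Flox 1 to 4. All but KO 4 lay above every Flox library, and the means were 1.15 ± 0.140 in KO and 0.914 ± 0.0760 in Flox (SD, n = 4 each). The ratio of H2-Ab1 to H2-Eb1 was 1.66, 1.62, 1.98 and 1.37 in KO 1 to 4, against 1.38, 1.32, 1.23 and 1.28 in Flox 1 to 4, with KO 4 just below Flox 1. The ratio of H2-Aa to H2-Eb1 varied little, at 1.43 ± 0.0495 in KO and 1.43 ± 0.0636 in Flox. These ratios were chosen after the values had been seen and are given with no test, and since the rows differ in length they do not compare amounts of the chains.

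**Figure D3:**
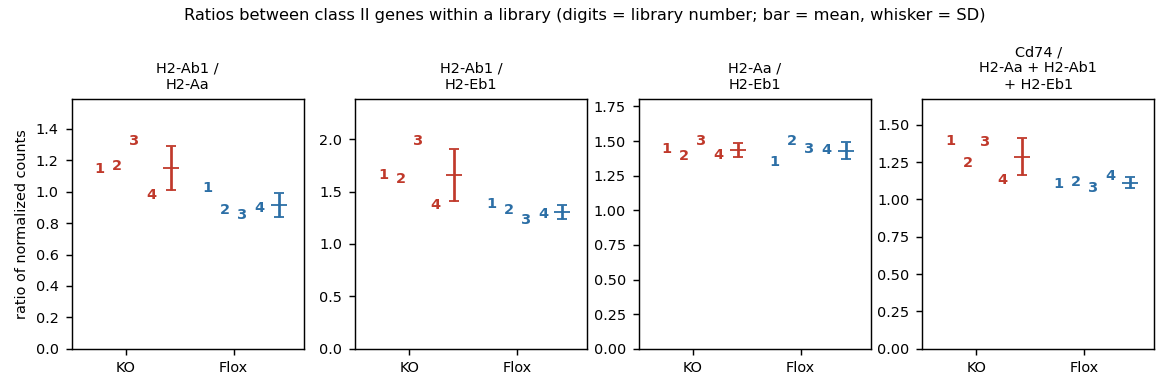
Ratios of normalized counts between class II genes within each KO library (red) and Flox library (blue), on linear axes from 0, with digits giving the library number and bar and whisker the mean and SD of 4 libraries. H2-Ab1 over H2-Aa reaches 1.32 in KO 3 and lies between 0.854 and 1.02 in Flox, while H2-Aa over H2-Eb1 averages 1.43 in both groups.

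Cd74, the invariant chain (chromosome 18, 60803848 to 60812646, plus strand), had 333340, 293819, 275666 and 314720 normalized counts in KO 1 to 4, against 252780, 246880, 290053 and 328685 in Flox 1 to 4. Flox 4 was as high as the upper KO libraries, while Flox 1 and Flox 2 lay below all KO libraries. The log2 fold change was 0.13 (SE 0.14, limma adjusted p = 0.649), with a 95% interval of the fold of 0.888 to 1.35. Relative to H2-Aa, H2-Ab1 and H2-Eb1 summed, Cd74 stood at 1.39, 1.24, 1.38 and 1.13 in KO 1 to 4, against 1.10, 1.12, 1.08 and 1.16 in Flox 1 to 4, so KO 1, KO 2 and KO 3 were above all Flox libraries and KO 4 was not. The row of Mir5107 shares 88 nt with Cd74 on the same strand.

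The peptide exchange genes lay on average somewhat lower in KO, within the spread of the libraries. H2-DMa, the alpha chain (chromosome 17, 34135182 to 34139101, plus strand), had 31243, 27745, 27898 and 31897 normalized counts in KO 1 to 4, against 29933, 29225, 35763 and 37489 in Flox 1 to 4. Flox 3 and Flox 4 exceeded every KO library, and Flox 1 and Flox 2 did not. Its log2 fold change was -0.15 (SE 0.11, limma adjusted p = 0.491).

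H2-DMb2 and H2-DMb1 are neighbouring copies of the beta chain gene, 1518 nt apart on chromosome 17, and reads that fit both may have been split between them by the counting. H2-DMb2 (34143307 to 34151553) had 20957, 19384, 17754 and 21667 normalized counts in KO 1 to 4, against 19373, 19555, 21199 and 23556 in Flox 1 to 4. H2-DMb1 (34153072 to 34160230) had 4014, 4470, 3574 and 4892 normalized counts in KO 1 to 4, against 4558, 4137, 4734 and 4903 in Flox 1 to 4. In both copies KO 3 was the lowest library and Flox 4 the highest. The log2 fold changes were -0.07 (SE 0.10) for H2-DMb2 and -0.12 (SE 0.10) for H2-DMb1, and -0.08 for their sum. The ratio of H2-DMb2 to H2-DMb1 was 4.74 ± 0.425 in KO and 4.57 ± 0.251 in Flox (SD, n = 4 each).

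For the H2-DO pair, H2-Oa (chromosome 17, 34092340 to 34095234) had 4990, 3715, 4359 and 4370 normalized counts in KO 1 to 4, against 3566, 3742, 4864 and 4931 in Flox 1 to 4. H2-Ob (34238903 to 34245907) had 9134, 7672, 9583 and 10787 normalized counts in KO 1 to 4, against 8482, 8630, 11977 and 11687 in Flox 1 to 4. In both genes Flox 3 and Flox 4 were well above Flox 1 and Flox 2, and the KO libraries spanned much of the same range. The log2 fold changes were 0.04 (SE 0.13, limma adjusted p = 0.913) for H2-Oa, a sign that turned with voom weights and in 4 settings that left libraries out, and -0.13 (SE 0.14, limma adjusted p = 0.672) for H2-Ob. The antisense row BC051537 covers the whole span of H2-Oa and averaged 24.8 in KO and 44.05 in Flox.

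On chromosome 17 the 8 H2 members lie within 224 kb (34092340 to 34316199), in the order H2-Oa, H2-DMa, H2-DMb2, H2-DMb1, H2-Ob, H2-Ab1, H2-Aa and H2-Eb1. Along this order the log2 fold changes were 0.04, -0.15, -0.07, -0.12, -0.13, 0.13, -0.20 and -0.20. The positive value of H2-Ab1 thus stood between negative ones, 13325 nt from H2-Aa and 17301 nt from H2-Ob.

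The genes whose values over the 8 libraries were most like those of Ciita, out of 10949 compared, were Plekhm1 (Pearson r = 0.98), Adgrg1 (0.97), St3gal2 (0.97), Sema6d (0.97) and Pou2af1 (0.96). Pou2af1 encodes the B cell coactivator OCA-B. For Cd74 they were Ica1 (r = 0.96), Kmt5c (0.95), Il4i1 (0.95), Fth1 (0.94) and Rhbdf1 (0.93). With only 8 libraries, 50 genes reached an r of at least 0.9 with Ciita and 11 with Cd74, so this is a ranking without a test. In the order named, log2 fold changes were 0.32, 0.62, 0.26, 0.96 and 0.25 for the genes most like Ciita. For those most like Cd74 they were 0.12, 0.06, 0.03, 0.12 and 0.06. Since r runs over both groups, it also takes in the difference between KO and Flox.

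**Figure D4:**
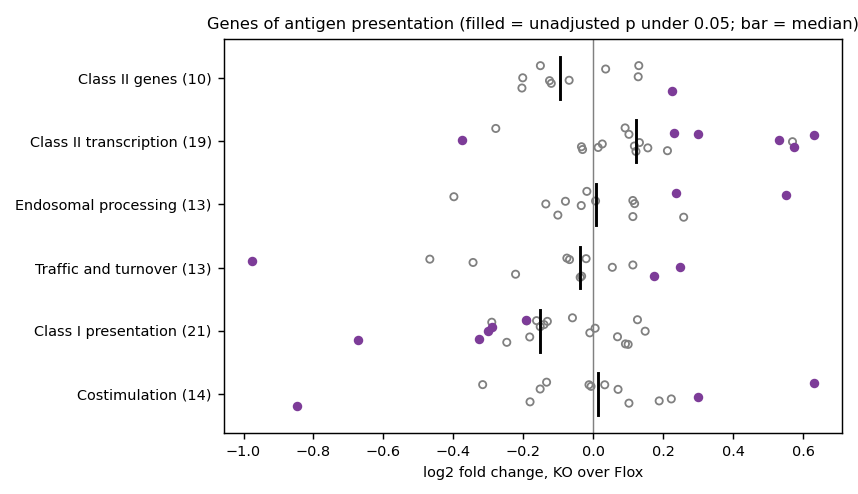
Log2 fold change of KO over Flox for each tested gene of 6 lists of antigen presentation (number tested in brackets), with filled points at an unadjusted limma p under 0.05 and the bar at the median of the list. The median is 0.12 for class II transcription genes and -0.15 for class I presentation genes, beside -0.01 over all genes tested.

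Other genes of antigen presentation were then compared. Of 81 list genes tested 0 passed the adjusted limma p, and 19 (23.5%) had an unadjusted limma p under 0.05, beside 15.1% of all genes tested. DESeq2 called 5, where it called 213 of 12072 genes with an adjusted p (1.76%). Over all genes tested 48.5% of log2 fold changes were positive and 51.5% negative. The 19 became 9 without KO 1 and KO 3, 12 without KO 1, 10 without Flox 3 and 11 without Flox 4. The share of all genes tested at that limit was not counted in those settings, so these drops cannot be set beside it. Among factors that act on class II promoters or on Ciita, 15 of 19 had a positive log2 fold change (median 0.12), and 5 were higher and 1 lower in KO at an unadjusted p under 0.05, beside the 7.74% and 7.39% of all genes tested given above. Pax5, the B lineage transcription factor, had 2985, 2709, 2688 and 2434 normalized counts in KO 1 to 4, against 2136, 1926, 1591 and 1650 in Flox 1 to 4, with no overlap (log2 fold change 0.57, SE 0.11, limma adjusted p = 0.205, DESeq2 adjusted p = 0.00233). Such a gap with KO higher was found in 4.18% of all genes tested. The acetyltransferase genes Crebbp, at 2689 ± 548 in KO and 1722 ± 230 in Flox, and Ep300, at 4728 ± 860 in KO and 3252 ± 449 in Flox, had log2 fold changes of 0.63 and 0.53 and were called by DESeq2 (adjusted p of 0.00954 and 0.0281). Both were highest in KO 1 and KO 3, at 2775 and 3432 for Crebbp and 5348 and 5587 for Ep300, against 2285 and 2266 (Crebbp) and 3980 and 3997 (Ep300) in KO 2 and KO 4. Without KO 1 and KO 3 the log2 fold changes were 0.41 for Crebbp, 0.30 for Ep300 and 0.50 for Pax5.

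The complex that binds the X box showed no common direction. Rfx5, its DNA-binding subunit, averaged 2361 ± 406 in KO and 1901 ± 163 in Flox (log2 fold change 0.30, SE 0.12). It was highest in KO 1 and KO 3 (2689 and 2726), while KO 2 and KO 4 (1935 and 2093) lay within the Flox range (1744 to 2116), and without KO 1 and KO 3 its log2 fold change was 0.09. Rfxap, another subunit, averaged 690 ± 100 in KO and 889 ± 44.1 in Flox (log2 fold change -0.37, SE 0.11), and Rfxank, the remaining subunit, averaged 1094 ± 38.9 in KO and 1008 ± 22.1 in Flox (0.12, SE 0.08). For the Y box factor NF-Y, the log2 fold changes were 0.23 (Nfya), -0.03 (Nfyb) and 0.13 (Nfyc). Without KO 1 and KO 3 Rfxap was at -0.19, Rfxank at 0.12 and Nfya at 0.12. The limma adjusted p of Rfx5 was 0.301, that of Rfxap 0.242, that of Rfxank 0.470 and that of Nfya 0.293. Rfx5, Rfxap, Rfxank and the NF-Y genes are named for their role, chosen after their values had been seen.

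Genes of endosomal processing had 7 positive and 6 negative log2 fold changes among 13 tested (median 0.01). At an unadjusted limma p under 0.05, 2 were higher in KO and 0 lower, beside 7.74% and 7.39% of all genes tested. The chaperone Hspa8 averaged 19564 ± 4253 in KO and 13227 ± 2169 in Flox (log2 fold change 0.55, SE 0.16, limma adjusted p = 0.240, DESeq2 adjusted p = 0.0474), and its log2 fold change was 0.30 without KO 1 and KO 3. The protease genes Ctsc and Ctsl had log2 fold changes of 0.24 (SE 0.10) and -0.40 (SE 0.19), and of 0.11 and -0.51 without KO 1 and KO 3. Of 13 genes of class II traffic and turnover 4 were positive (median -0.04). At that limit 2 of them were higher and 1 lower in KO, beside the same shares of all genes. The tetraspanin Cd63, at only 29.0 ± 13.2 in KO and 53.6 ± 7.26 in Flox, had a log2 fold change of -0.97 (SE 0.34), the lysosomal GTPase gene Arl8b one of 0.25 (SE 0.10) and Ubqln1 one of 0.17 (SE 0.08). Without KO 1 and KO 3 these were -0.87, 0.14 and 0.15.

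Genes of the class I pathway had 15 of 21 negative log2 fold changes (median -0.15), with 5 lower and 0 higher in KO at an unadjusted p under 0.05, where 7.39% of all genes tested were lower and 7.74% higher. H2-Q4, a nonclassical class I gene, had 4252, 4374, 4549 and 4666 normalized counts in KO 1 to 4, against 5109, 5055, 5270 and 4950 in Flox 1 to 4, with no overlap (log2 fold change -0.19, SE 0.07, limma adjusted p = 0.271). Among all 13091 genes tested, 496 were lower in KO with no overlap. Genes of the H2-Q group are close copies, so their reads may be shared among rows. The immunoproteasome subunit Psmb8 averaged 9684 ± 1506 in KO and 12078 ± 1164 in Flox (-0.33, SE 0.12), and the proteasome activator Psme2 2339 ± 833 in KO and 3501 ± 215 in Flox (-0.67, SE 0.25), with KO 3 lowest at 1127. Without KO 1 and KO 3 the log2 fold changes were -0.17 (H2-Q4), -0.15 (Psmb8) and -0.28 (Psme2). Of the 14 costimulation genes, 7 were positive and 7 negative (median 0.01). At an unadjusted limma p under 0.05, 2 of them were higher and 1 lower in KO, beside the same shares of all genes. Cd70, the ligand of CD27, averaged 186 ± 50.2 in KO and 334 ± 80.3 in Flox (log2 fold change -0.85, SE 0.23, DESeq2 adjusted p = 0.0309), Icosl, the ligand of ICOS, 474 ± 140 in KO and 306 ± 94.3 in Flox (0.63, SE 0.25), and the IgE receptor gene Fcer2a 40949 ± 8659 in KO and 32704 ± 852 in Flox (0.30, SE 0.14). Fcer2a was high in KO 1 and KO 3 (49805 and 46944), while KO 2 and KO 4 (33894 and 33151) lay near Flox (31435 to 33235), and without KO 1 and KO 3 its log2 fold change was 0.04. Without them Cd70 was at -0.59 and Icosl at 0.54.

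Ago2 CLIP was then read along the class II genes. The deposited dCLIP output cuts bound stretches into segments of 3 states, with a negative difference, no difference or a positive difference between its conditions, in bins of 5 nt. It does not say which condition is KO, so a sign here has no genotype, and the pooled replicates leave no error to set beside a value. All 10 members held segments on their own strand, 955 in all, against 2 on the opposite strand, 1 each in Cd74 and H2-DMb2. Segments covered 96.1% of the Cd74 span, 92.3% of H2-Aa, 82.3% of H2-Ab1, 53.7 to 70.0% of H2-DMa, H2-DMb1, H2-DMb2, H2-Ob, H2-Eb1 and Ciita, and 36.1% of H2-Oa. The median was 67.1% over the members, beside 8.09% over the 10212 tested protein-coding genes with a segment. Cd74, H2-Aa and H2-Ab1 were also the members with the most RNA-seq reads, and the part of RNA amount and of gene span in this cover was not tested.

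By state, 28.7% of the members' segments were negative, 56.1% showed no difference and 15.2% were positive, beside 31.2, 59.0 and 9.80% in tested protein-coding genes. Mean differences per gene ran from -0.08 in H2-Oa to 0.00 in H2-Aa, with a median of -0.03 over the members and -0.05 over those coding genes. Each member held segments of both signs. Segments with an authors' score of at least 5 numbered 187, and among them the balance of signs turned, with 64 negative and 123 positive (65.8%). The same held in tested protein-coding genes, where 70.1% of segments with such a score were positive. Ciita held 44 of the 187 (11 negative and 33 positive), Cd74 35 (14 and 21), H2-Ob 19 (11 and 8) and H2-Oa 1.

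The highest score of any member, 193.9, was at the 5′ end of Cd74, in a segment of 45 nt that began 72 nt after the gene start (60803920 to 60803964, mean difference -0.23). Others in Cd74 lay at 60810340 to 60810399 (score 77.6) and at 60812290 to 60812564 (score 72.7, 275 nt wide), the last ending 82 nt before the gene end, and both were negative. In H2-Aa the top segment ended 106 nt before the gene end (34282850 to 34282894, score 49.7, difference 0.22), and 1 of 95 nt lay further inside (34284405 to 34284499, score 47.7, difference -0.25). H2-DMb2 had its top segment 334 nt before the gene end (34151150 to 34151219, score 49.4, difference 0.20).

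In Ciita the segments with the highest scores stood side by side near the 3′ end with opposite signs: 10526370 to 10526399 had a score of 41.2 and a difference of -0.30, and 10526420 to 10526519 a score of 21.5 and a difference of 0.24. Another segment of Ciita lay 10742 nt after the gene start (10498920 to 10498969, score 15.3, difference 0.31). Of segments with a score of at least 5, 28.3% of the members' lay in the last 20% of the span, beside 38.8% in tested protein-coding genes. By member this share was 63.2% of 19 in H2-Ob, 57.1% of 7 in H2-DMa, 31.6% of 19 in H2-DMb2, 25.0 to 27.8% in H2-Aa, H2-Eb1, H2-DMb1 and Ciita, 17.1% of 35 in Cd74 and 10.0% of 20 in H2-Ab1, and the 1 segment of H2-Oa lay outside it. H2-Ab1 had its top segment 2029 nt before the gene end (34267365 to 34267389, score 34.3, difference 0.24) and H2-Eb1 1945 nt before it (34314185 to 34314254, score 21.5, difference 0.47). Exons, introns and untranslated parts were not told apart, since no exon positions of this build were used here, so no segment was searched for the seed shown above.

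**Figure D5:**
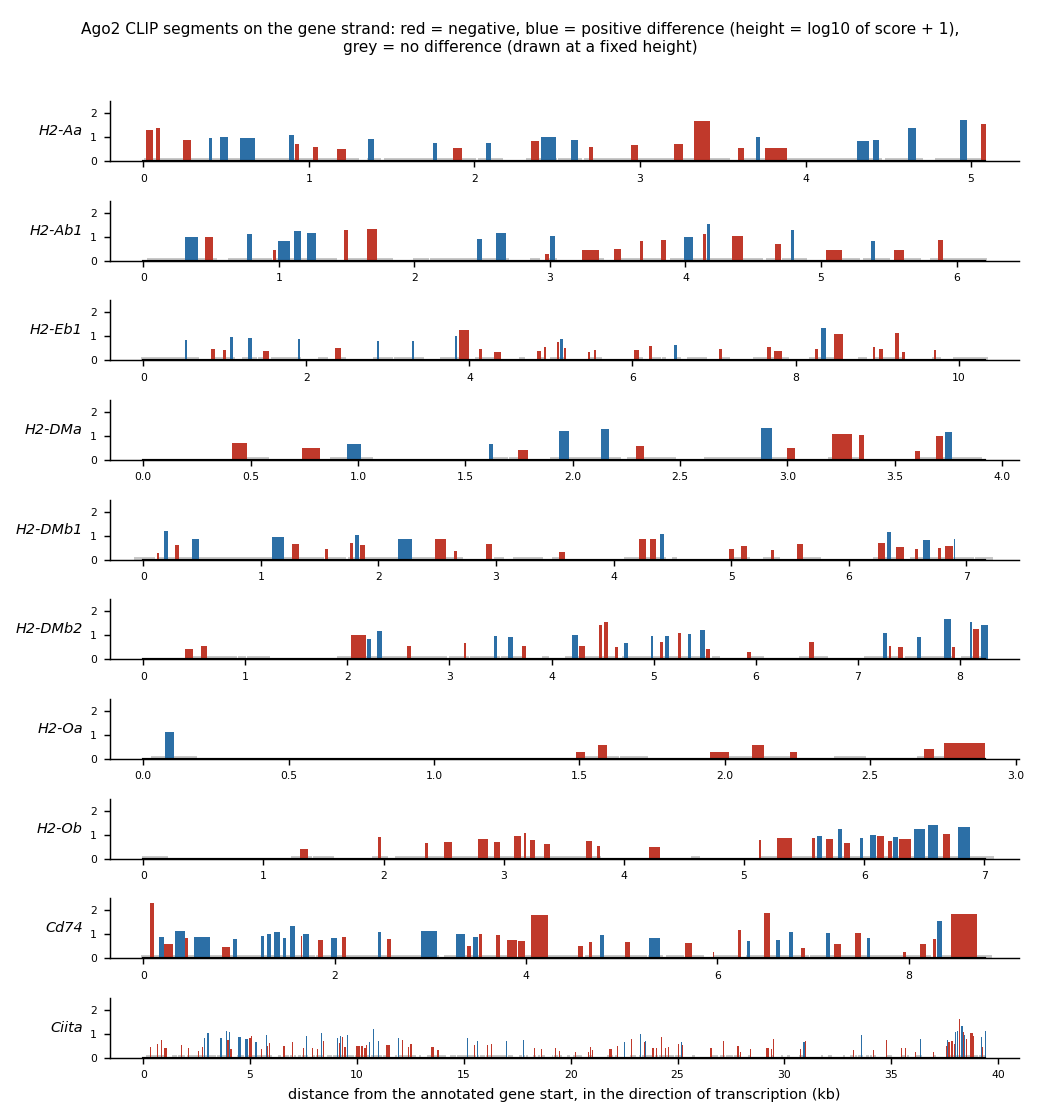
Ago2 CLIP segments on the strand of each class II gene against distance from the annotated gene start in kb, 1 row per gene with its own scale, with red for a negative and blue for a positive difference (height log10 of score plus 1) and grey at a fixed low height for no difference. The tallest bar, at the start of Cd74, has a score of 193.9, and both colours occur in every gene.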

How the data were processed

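The authors' deposited RNA-seq table gives gene counts divided by 1 size factor per library (a normalized signal, 1 decimal), variance-stabilized log2 values (not used here), GC percent, and the authors' own comparison (p-values, log2 change and linear ratio), per the file headers, with the Flox libraries named WT. The submitters' processing notes name cutadapt, Bowtie2, SAMtools, STAR, DESeq2, DESeq and mm9, without roles. Positions in the RNA-seq table fit GRCm38. The dCLIP positions were set against these gene spans as they stand, with no conversion between builds, and their build was not checked separately. Set so, 955 segments lay on the members' own strand and 2 on the opposite strand. The deposited dCLIP files give a difference score and state per 5-nt bin, and a score per segment, per the file headers; 4 columns of tags and mutations per unnamed condition were not used. Dividing by the value of 1 read gave whole reads for 100% of values above 0 (within 0.1 read).

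All genes with a mean of at least 10 normalized counts were fitted with limma-trend (limma 3.58.1, R 4.3.3) on log2 of the value plus 1, KO against Flox, two-sided, Benjamini-Hochberg threshold 0.05. The planned choice between this and a count test followed the deposited unit, so edgeR 4.0.16 and DESeq2 1.42.0 on recovered reads are alternatives. Each fit was tested on simulated data. The labels do not call the libraries separate mice, so a p-value covers only the spread among them, which may be technical. The members and lists were chosen with earlier results of these data known. Named genes were all members, up to 3 per list by unadjusted p and the 5 genes most correlated with Ciita and Cd74 (mean at least 50); genes outside this rule are said to be so. Segments went to every gene whose span they overlapped on the same strand, and cover was counted inside the span. Of the genes in the marker lists, the values of 1 are not reported here.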

Additional observations from a re-analysis of the deposited data

Results flagged for a closer look

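Among 90 groups of 4 libraries checked for a value far from the other 3, 2 stood out, fewer than the 1 in 20 that chance gives, and none was in a class II member. Flt3, counted among the dendritic cell markers, had 2690.6 in KO 4, against 2107.4 to 2192.2 in the other KO libraries. Fcer2a had 31435.1 in Flox 2, against 32993.6 to 33235.1 in the other Flox libraries.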

How the results depend on the processing

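No member passed the adjusted p in any setting run: 0 of 10 with every alternative and with each library left out. Of 202 refits of a member's log2 fold change 196 kept its sign and 6 turned it, all in H2-Oa and H2-DMb1. H2-Oa was at -0.007 with voom weights and at -0.07 without KO 1 and KO 3, and ran from -0.0466 to 0.1096 with 1 library left out; H2-DMb1 was at 0.032 without KO 1 and KO 3. With 1 library left out the others ran from -0.31 to -0.10 (H2-Aa), 0.07 to 0.19 (H2-Ab1), -0.32 to -0.08 (H2-Eb1), -0.21 to -0.09 (H2-DMa), -0.19 to -0.04 (H2-DMb1), -0.11 to -0.01 (H2-DMb2), -0.21 to -0.04 (H2-Ob), 0.07 to 0.21 (Cd74) and 0.19 to 0.25 (Ciita). Members at an unadjusted p under 0.05 numbered 0 without KO 1 and KO 3 and 0 to 1 with 1 library left out (0 without Flox 2), against 1. Over all genes 9 were called, with 213 in DESeq2, 16 with voom weights and 8 to 17 with 1 library left out (17 without KO 2, 14 without KO 4). Other list genes called were 5 in DESeq2, and those at an unadjusted p under 0.05 were 9 without KO 1 and KO 3 and 10 to 24 with 1 library left out, against 19. The cause of these changes was not tested. The share of all genes at an unadjusted p under 0.05 was not counted with libraries left out. Deviations from the group means of same-numbered libraries had correlations of -0.09 to 0.00, within the -0.16 to 0.22 of other pairs. These values cannot show whether same-numbered libraries were prepared together. With the replicate block 11 genes and 0 members were called. The CLIP segments numbered 187 at a score of at least 5 and 2 on the opposite strand, and the 955 became 890 at a width of at least 20 nt. Depth was ample for every member, with at least 2849 reads in each library, so the spread between libraries sets the limit.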
